A study of Mus musculus with 4 samples.

Results

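The TNF superfamily of ligands, their receptors and the adaptors that carry their signal was followed in follicular helper T cells (TFH cells) that lack Rictor. Members were the genes whose platform symbol begins with Tnfsf or Tnfrsf, together with Traf1 to Traf6, Cd40, Cd40lg, Cd27, Cd70, Lta, Ltb, Ltbr, Fas and Tradd, wherever a probe set carried that symbol alone. This gave 41 genes of 18193 on the array, read from 71 probe sets, and each gene was taken at the probe set with the highest mean over the 4 arrays. The arrays compared Rictor-null TFH cells, sorted from the spleen of Rictor fl/fl Cd4-Cre mice, with WT TFH cells from Rictor fl/fl littermates, both at day 8 after infection with the Armstrong strain of lymphocytic choriomeningitis virus (LCMV). There were 2 arrays per group, each from pooled mice. A pool held at least 5 mice by the series text, but the sources differ on this number. Rictor is the defining subunit of mTOR complex 2 (mTORC2), a kinase complex that phosphorylates AKT. Cd4-Cre is active in thymocytes that express CD4, so that the deletion is carried by all T cells that descend from them, CD8 T cells included, and is not particular to TFH cells.

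TNF superfamily ligands are mostly trimeric proteins of the cell surface that can be shed, and they bind receptors on neighbouring cells or in the same cell. The receptors recruit TRAF adaptors or, through a death domain, TRADD and FADD, and thereby reach NF-kappaB, the JNK kinases or caspases. TFH cells use this family to help germinal centre B cells, with CD40 ligand as the best known example, and T cells themselves are co-stimulated through receptors such as OX40, GITR, 4-1BB and CD27.

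All values are deposited array intensities on a linear scale, each difference is Rictor-null minus WT on log2(intensity + 16), and a gene passed where its adjusted p in limma was under 0.05. The intensities of different probe sets are not comparable with each other. The array medians lay between 19.98 and 20.4, and arrays correlated at 0.998 within each group and at 0.993 to 0.994 between groups. Rictor itself, at its brightest probe set, read 267 and 279 in Rictor-null and 334 and 303 in WT cells (log2 difference -0.21, limma adjusted p = 0.0366). A probe set outside the deleted part would not read the deletion, and whether this one, the brightest of 5, lies outside was not tested. The paper reports Rictor mRNA as undetectable in TFH cells sorted from Rictor-null mice. Of 10 genes listed to check the TFH label, 8 were lower in Rictor-null cells, among them Cxcr5 (-0.70) and Bcl6 (-0.94), while Icos, the brightest of them, and Sh2d1a did not pass. The 8 include the general T cell genes Cd3e (-0.32, limma adjusted p = 0.00162) and Cd4 (-0.26, limma adjusted p = 0.0145), and their part in the differences of the members was not tested. The summed intensity of the list, in which bright probe sets weigh most, was 10820 to 11043 in Rictor-null cells, against 13445 to 14089 in WT cells, and 6566 to 6601 against 9194 to 9666 without Icos. Fewer cells of a type and less RNA per cell cannot be told apart in such bulk samples.

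Of the 41 members, 3 were higher and 5 lower in Rictor-null cells, and 33 did not pass. Over all 18193 genes, 12.5% were called higher and 7.19% lower. Both Rictor-null arrays stood above both WT arrays in 13 members (30.6% of all genes did so) and below them in 12 (24.9% of all genes). The median log2 difference was -0.05 over the members and 0.01 over all genes. Among 11 measured ligands, 4 were lower and 0 higher, and their median was -0.15. Among 23 receptors, 3 were higher and 1 lower, and none of the 6 adaptors passed. At an unadjusted p under 0.05 there were 13 members in all, against 5457 of all genes (30.0%).

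**Figure D1:**
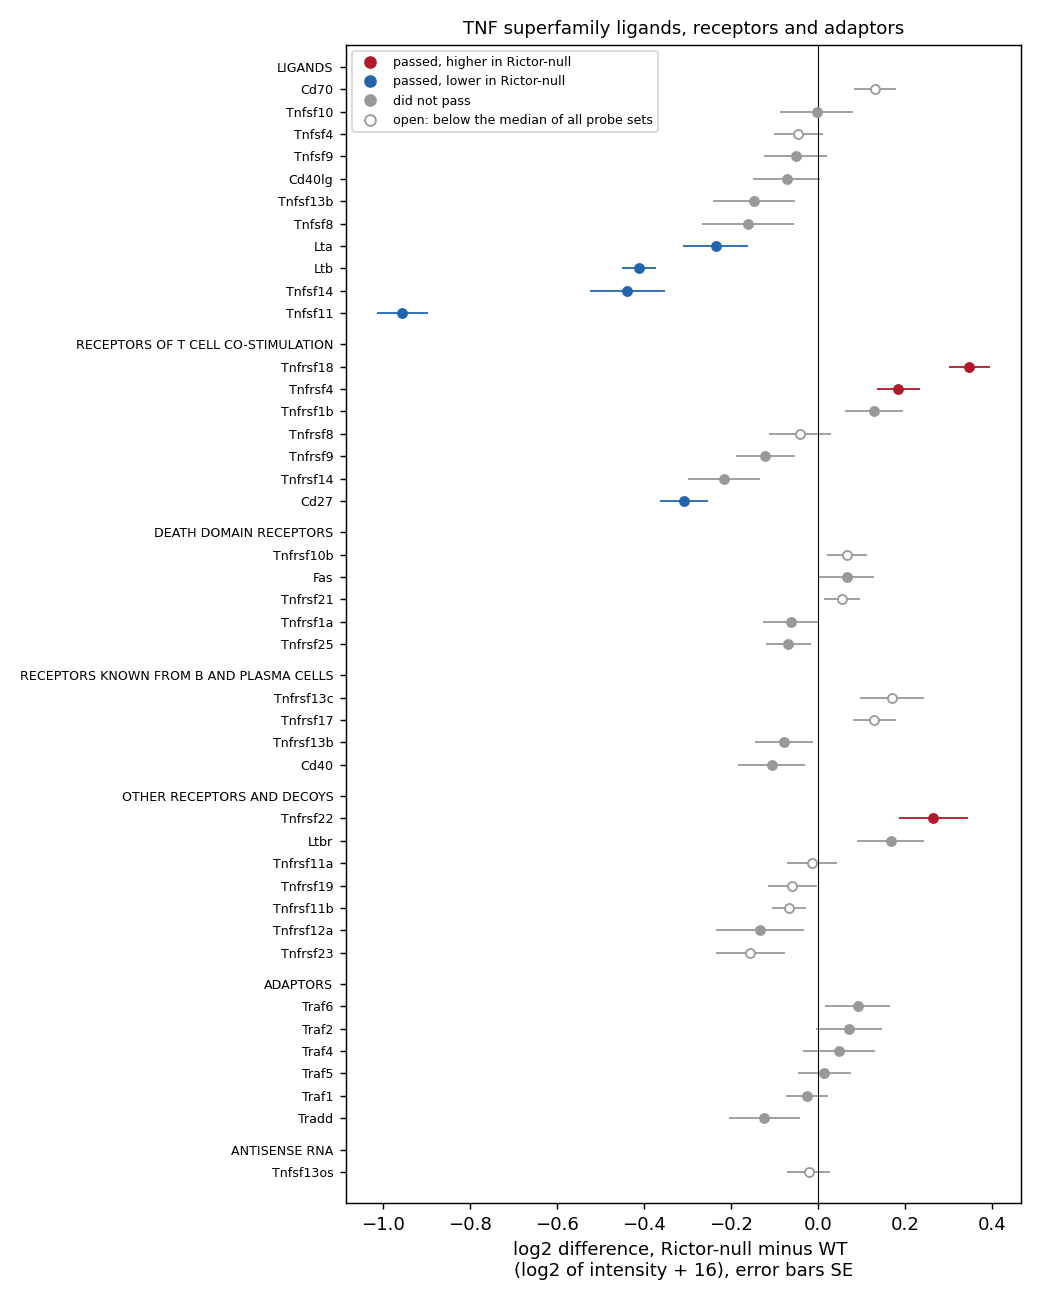
Log2 difference, Rictor-null minus WT, of all 41 members by class, as the limma estimate with its standard error from 2 arrays per group. Lta, Ltb, Tnfsf14 and Tnfsf11 passed below 0 among the ligands, Tnfrsf18 and Tnfrsf4 passed above 0 among the co-stimulatory receptors, and open points mark members dimmer than the median probe set of 20.2.

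The ligand with the largest difference was Tnfsf11, which encodes RANK ligand, known for driving osteoclast formation and lymph node development and made by activated T cells. Its probe set read 170.2 and 174 in Rictor-null cells, against 351 and 347 in WT cells. The groups lay far apart and replicates nearly coincided. The log2 difference was -0.96 (SE 0.06, limma adjusted p = 7.45e-07), and the ratio of linear means, WT over Rictor-null, was 2.03. A dimmer probe set for the same gene read 32.4 and 43.4 in Rictor-null and 70.3 and 73.2 in WT cells and gave -0.71, so that both probe sets placed Rictor-null cells lower. The RANK receptor Tnfrsf11a and the soluble decoy osteoprotegerin, Tnfrsf11b, were both dimmer than the median probe set and did not pass.

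Ltb and Lta encode the 2 lymphotoxin subunits, which pair into a membrane heterotrimer that binds the lymphotoxin beta receptor and organises lymphoid tissue. Ltb read 2469 and 2492 in Rictor-null cells, against 3284 and 3326 in WT cells. The 4 values fell into 2 tight pairs, and the log2 difference was -0.41 (SE 0.04, limma adjusted p = 1.79e-05). Lta read 94.1 and 88.7 in Rictor-null cells, against 111 and 109.6 in WT cells. The groups did not overlap for Lta either, with a difference of -0.24 (SE 0.08, limma adjusted p = 0.0440), but the call was lost when any of the 4 arrays was left out, at adjusted p values of 0.0709 to 0.193, and with adjustment over all probe sets (0.0741). In the RefSeq order of protein-coding genes, Tnf lies between Ltb and Lta. Tnf, encoding tumour necrosis factor, is outside the selection by symbol. It read 199 and 222 in Rictor-null cells and 239 and 236 in WT cells, and its difference of -0.16 did not pass (95% interval -0.31 to -0.02, limma adjusted p = 0.123). It passed without Rictor-null replicate 2 (-0.23, adjusted p = 0.0471), with adjusted p between 0.0471 and 0.559 over the limma alternatives.

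Tnfsf14, encoding LIGHT, which binds HVEM and the lymphotoxin beta receptor, read 144 and 129 in Rictor-null cells, against 174 and 208 in WT cells. Both Rictor-null arrays were below both WT arrays, and the WT arrays differed from each other more than the Rictor-null ones. The difference was -0.44 (SE 0.09, limma adjusted p = 0.00294). It was -0.32 without WT replicate 2, where the call was lost (adjusted p = 0.107, the highest over the limma alternatives, which began at 0.000700). The second Tnfsf14 probe set gave -0.44 too. In the gene order, Tnfsf14 follows Cd70, and Cd70 follows Tnfsf9. Neither Cd70 nor Tnfsf9 passed.

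Promoters were read for the members that moved, and 3 are shown for the ligand, the lymphotoxin subunit and the receptor described most fully here. They run from 250 bases before to 50 bases after the RefSeq start site (GRCm38.p6), 5′ to 3′ along the gene, with motif matches in capitals. Tnfsf11 lies at chr14:78307994-78308293 on the minus strand, Ltb at chr17:35194257-35194556 on the plus strand and Tnfrsf18 at chr4:156026072-156026371 on the plus strand. The Ltb window was added after its values were seen.
Tnfsf11: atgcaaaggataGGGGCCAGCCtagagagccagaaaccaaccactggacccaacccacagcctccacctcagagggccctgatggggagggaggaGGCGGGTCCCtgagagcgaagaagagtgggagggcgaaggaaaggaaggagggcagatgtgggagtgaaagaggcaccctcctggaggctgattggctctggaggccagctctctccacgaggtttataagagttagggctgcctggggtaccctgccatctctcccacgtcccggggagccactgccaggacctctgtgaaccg
Ltb: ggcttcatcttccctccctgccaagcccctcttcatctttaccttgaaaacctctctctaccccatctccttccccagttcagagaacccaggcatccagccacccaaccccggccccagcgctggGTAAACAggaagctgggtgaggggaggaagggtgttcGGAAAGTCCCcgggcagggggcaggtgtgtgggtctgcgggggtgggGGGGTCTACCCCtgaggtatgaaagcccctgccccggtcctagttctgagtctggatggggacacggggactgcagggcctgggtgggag
Tnfrsf18: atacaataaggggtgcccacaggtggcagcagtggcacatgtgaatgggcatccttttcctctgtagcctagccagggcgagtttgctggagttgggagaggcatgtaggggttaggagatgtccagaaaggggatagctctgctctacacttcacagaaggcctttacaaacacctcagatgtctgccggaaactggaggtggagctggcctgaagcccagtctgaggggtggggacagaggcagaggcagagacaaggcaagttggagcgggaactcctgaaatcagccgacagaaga
Both strands were searched for TGANTCA (AP-1), GTAAACA (forkhead) and a loose NF-kappaB motif (GGG, any 5 bases, then CC). These stood in 7.81%, 3.65% and 50.79% of 32851 promoters of this length. A promoter was found for 7 of the 8 members that passed and for 31 of all 41. Ltb held GTAAACA at -124, and loose NF-kappaB matches at -87 and overlapping at -40 to -38, inside GGGGTCTACCCC. Tnfsf11 held loose matches at -238 and -155. Tnfsf14 held an AP-1 match at -160 and loose matches, and Lta and Cd27 held loose matches only. Neither Tnfrsf18 nor Tnfrsf4 held a match. A match is a description of the letters in this window.

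The ligands that did not pass include the one best known from TFH cells. Cd40lg encodes CD40 ligand, which drives B cell activation and class switching. It read 18.3 and 22.0 in Rictor-null cells and 20.3 and 23.7 in WT cells, the groups overlapped, and the 95% interval of its difference ran from -0.24 to 0.10. Its only probe set lay close to the median of the array, where the pseudocount understates changes. The difference was -0.07, or -0.12 with a pseudocount of 1, and neither passed. The paper states that it selected Cd40lg, with other genes, from its microarray results. By quantitative PCR, it reports lower Cd40lg in Rictor-null than in WT TFH cells. The reading of the arrays made here did not resolve such a difference and does not show that Cd40lg was unchanged. Tnfsf8, encoding CD30 ligand, read 516 and 710.0 in Rictor-null cells and 705 and 654 in WT cells. The 2 Rictor-null arrays disagreed more than the groups did, and the difference of -0.16 had an interval of -0.39 to 0.07 (limma adjusted p = 0.355). It was -0.39 without Rictor-null replicate 2 and 0.06 without Rictor-null replicate 1, so that even its sign hung on which Rictor-null array was kept.

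Tnfsf10 encodes TRAIL, a ligand that can start apoptosis. Its brightest probe set read 55.7 and 61.1 in Rictor-null and 59.1 and 58.0 in WT cells, with a difference of 0.00. Its dimmest, below the median of the array, read 18.9 and 22.7 in Rictor-null cells and 14.0 and 11.3 in WT cells. That difference of 0.36 passed when all probe sets were tested together (limma adjusted p = 0.0147). A further probe set, above the median, overlapped between groups and did not pass (0.15, limma adjusted p = 0.403). The probe sets of this gene therefore gave different answers. Tnfsf9, encoding 4-1BB ligand, read 144 and 134 in Rictor-null cells and 149 and 139.6 in WT cells, with an interval of -0.21 to 0.10. Tnfsf13b, encoding the B cell survival factor BAFF, read 29.3 and 22.3 in Rictor-null and 27.8 and 32.6 in WT cells, and its interval was -0.35 to 0.06. Both overlapped between groups.

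Fasl, encoding Fas ligand, does not carry a symbol that the selection takes but is the ligand of the member Fas. It read 171 and 165 in Rictor-null cells, against 99.7 and 98.0 in WT cells. Both Rictor-null arrays stood above both WT arrays by a wide margin (log2 difference 0.68, SE 0.07, limma adjusted p = 2.96e-05). This was opposite in direction to the 4 ligands of the selection that passed, while 7 ligands did not pass. Of 5 measured NK and CD8 markers, Cd8b1 (0.53) and Gzmm (0.73) were higher too, while Cd8a was at 0.00. They summed to 245 to 274 in Rictor-null cells, against 164 to 185 in WT cells, and the part of such cells in the Fasl difference was not tested. Of the other TNF family genes outside the selection, 6 did not pass.

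Receptors that co-stimulate T cells moved both ways. Tnfrsf18 encodes GITR. It read 1074 and 1048 in Rictor-null cells, against 849 and 813 in WT cells. All 4 values formed 2 separate pairs, with a difference of 0.35 (SE 0.05, limma adjusted p = 0.000223), and the call held in every limma alternative. GITR is also a sorting marker in the study, where bulk activated TFH cells were gated as GITR-low. How the cells of the arrays were gated was not stated, so the part of such a gate in the Tnfrsf18 reading was not tested. Regulatory T cells carry much GITR. Their defining marker Foxp3 was below the median probe set, at 9.91 and 7.35 in Rictor-null and 7.80 and 10.9 in WT cells. Of 8 measured regulatory T cell markers, Il2ra (0.36) and Capg (0.41) were higher, Ikzf2 (-0.39) was lower and 5 did not pass. The 8 summed to 2025 to 2056 in Rictor-null cells, against 2359 to 2377 in WT cells. Without Ikzf2, the brightest, they summed to 1004 to 1011 in Rictor-null and 1003 to 1011 in WT cells. Such sums can hide rises and falls that offset each other. The part of regulatory T cells in the Tnfrsf18 difference was not tested.

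Tnfrsf4, encoding OX40 and the direct neighbour of Tnfrsf18, read 668 and 669.5 in Rictor-null cells, against 597 and 576 in WT cells. The groups did not overlap, and the difference of 0.18 passed (SE 0.05, limma adjusted p = 0.0195) but was lost when any of the 4 arrays was left out (adjusted p 0.0525 to 0.182) and when all probe sets were adjusted together (0.0510). Cd27, the receptor for CD70 that sustains T cell survival, went the other way. It read 833 and 923 in Rictor-null cells, against 1117 and 1064 in WT cells, with a difference of -0.31 (SE 0.06, limma adjusted p = 0.00161). The groups did not overlap, yet the call was lost without WT replicate 1 (-0.27, adjusted p = 0.0902) and without WT replicate 2 (-0.34, 0.0545), in a range over the limma alternatives of 0.000297 to 0.0902. Its ligand Cd70 was below the median probe set.

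**Figure D2:**
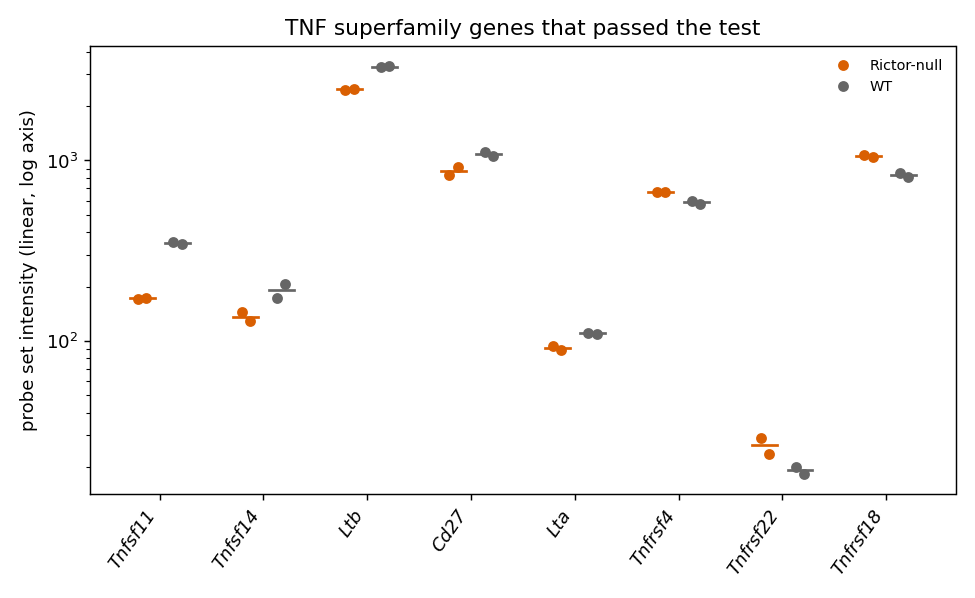
Intensity on each array for the 8 members that passed, on a log axis, with Rictor-null arrays to the left of WT arrays for each gene, 1 point per array and a line at each group mean (n = 2). Tnfsf11 read 170.2 and 174 in Rictor-null cells against 351 and 347 in WT cells. The groups do not overlap in any of the 8 genes, which were chosen by the test on these same arrays. Of all genes, 30.6% were apart with Rictor-null higher and 24.9% with Rictor-null lower.

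Tnfrsf14 encodes HVEM, the receptor of LIGHT. It read 46.3 and 46.1 in Rictor-null cells and 55.6 and 56.9 in WT cells. The groups were apart, but -0.22 missed the threshold (limma adjusted p = 0.0901). It passed among genes above the median probe set (limma adjusted p = 0.0354) and without the trend (0.0213). It also passed under the mean of all probe sets (0.0291), but Tnfrsf14 has 1 probe set, so only the values of other genes changed there. With adjustment over all probe sets it did not pass (0.125). The difference lay between -0.28 and -0.20 over all alternatives. Tnfrsf9, encoding 4-1BB, read 183 and 175 in Rictor-null and 204 and 188 in WT cells (-0.12, interval -0.27 to 0.03), while a second probe set, 63.9 and 49.7 in Rictor-null and 49.3 and 45.1 in WT cells, had a difference of the opposite sign (0.20). Tnfrsf1b, encoding TNF receptor 2, read 294 and 275 in Rictor-null and 271 and 247 in WT cells, with an interval of -0.01 to 0.27.

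**Figure D3:**
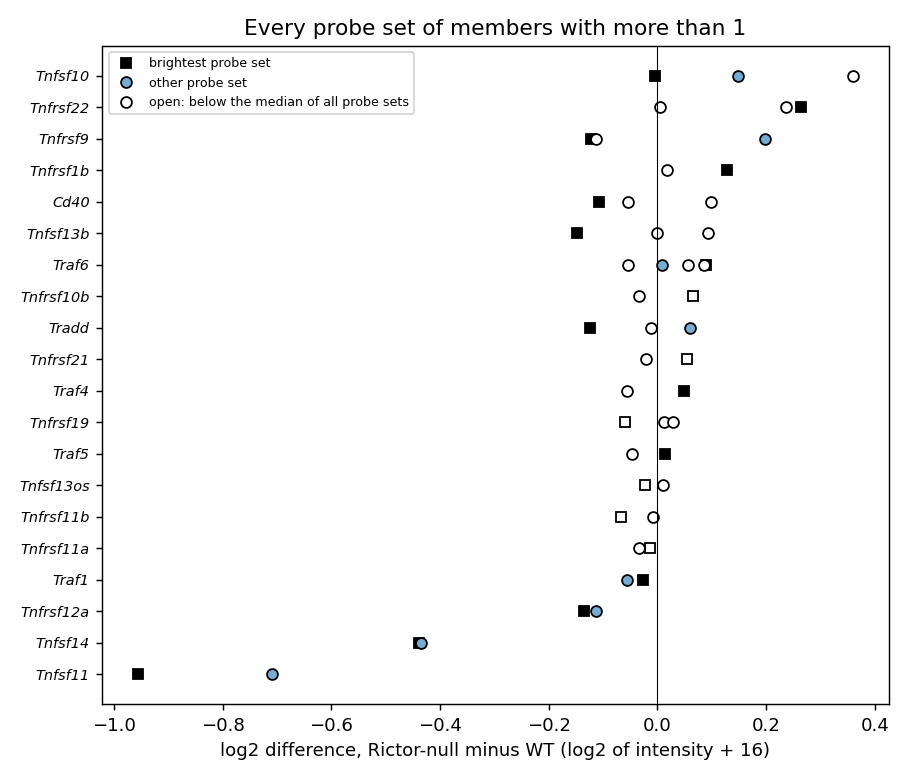
Log2 difference, Rictor-null minus WT, at each single-symbol probe set of the 20 members that have several, with squares for the brightest and open marks for those dimmer than the array median. In 8 genes more than 1 probe set was brighter than that median, and 5 of them kept 1 sign across these probe sets, while Tnfrsf9, Tnfsf10 and Tradd did not.

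None of the 5 death domain receptors passed. Fas, the apoptosis receptor that Fas ligand engages, read 209 and 224 in Rictor-null and 205 and 207 in WT cells, with an interval of -0.07 to 0.20. Tnfrsf1a, encoding TNF receptor 1, read 168 and 166 in Rictor-null and 177 and 174 in WT cells, with an interval of -0.20 to 0.08. Tnfrsf25, encoding DR3, read 493 and 517 in Rictor-null and 527 and 534 in WT cells, with an interval of -0.18 to 0.05. The groups did not overlap in any of the 5, with 3 higher and 2 lower in Rictor-null cells (30.6% and 24.9% of all genes were apart in these directions), by differences the test did not resolve. Tnfrsf10b and Tnfrsf21 were below the median probe set.

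Receptors known from B and plasma cells were read as a check on other cells as well as members. Tnfrsf13b, encoding TACI, read 299.5 and 323 in Rictor-null and 347 and 312 in WT cells, and Cd40 read 23.4 and 20.01 in Rictor-null and 23.0 and 26.2 in WT cells. In both the groups overlapped. Tnfrsf13c, the BAFF receptor, and Tnfrsf17, encoding BCMA, were below the median probe set, with differences of 0.17 and 0.13 that did not pass. Of 12 measured B and plasma cell markers, 3 were higher in Rictor-null cells, namely Jchain (1.49), Cd79b (0.40) and Pax5 (0.22), and 9 of 12 were below the median probe set, Ms4a1 and Cd79a among them. Their summed intensity was 3274 to 3356 in Rictor-null cells, against 2989 to 3031 in WT cells, or 492 to 524 against 236 to 249.6 without Ighm, the brightest. Myeloid markers summed to 451 to 497 in Rictor-null and 317 to 325 in WT cells, with Fcgr3, Lyz2, Itgam and S100a8 of 12 higher. The part of such cells in the differences of the members was not tested.

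Ltbr, the lymphotoxin beta receptor, which is typical of stromal and myeloid cells rather than T cells, read 30.4 and 26.9 in Rictor-null and 23.3 and 24.3 in WT cells. The groups were apart, and the difference of 0.17 did not pass (interval 0.00 to 0.33, limma adjusted p = 0.166). Tnfrsf22, a mouse decoy receptor for TRAIL, read 29.1 and 23.6 in Rictor-null cells, against 19.99 and 18.4 in WT cells. The difference of 0.26 passed (SE 0.08, limma adjusted p = 0.0323), close to the median of the array and with the Rictor-null arrays unlike each other. The call was lost without Rictor-null replicate 1 (0.17, adjusted p = 0.288), without either WT array (0.130 and 0.227), with the mean of its probe sets (0.135) and with adjustment over all probe sets (0.0843), in a range of 0.0182 to 0.288 over the limma alternatives. A probe set that names both Tnfrsf22 and its neighbour Tnfrsf23 read 72.5 and 74.5 in Rictor-null and 70.2 and 64.6 in WT cells. Tnfrsf12a, the TWEAK receptor, read 32.0 and 32.0 in Rictor-null and 42.8 and 31.3 in WT cells.

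The 12 members below the median probe set were Tnfsf4, Cd70, Tnfrsf8, Tnfrsf10b, Tnfrsf21, Tnfrsf13c, Tnfrsf17, Tnfrsf11a, Tnfrsf11b, Tnfrsf19, Tnfrsf23 and the antisense RNA Tnfsf13os. They read between 7.06 and 21.5 in Rictor-null and between 7.605 and 22.6 in WT cells, with differences of -0.16 to 0.17. None passed, and a change in genes this dim may not be readable on these arrays.

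The adaptors lay between -0.12 and 0.09. Traf1, an adaptor induced by NF-kappaB in activated T cells, read 899 and 857 in Rictor-null and 907 and 881 in WT cells, with an interval of -0.13 to 0.08. Traf2, a ubiquitin ligase partner shared by many of these receptors, read 108 and 117 in Rictor-null and 106 and 106 in WT cells. Traf5, which binds OX40 and CD27, read 293 and 277 in Rictor-null and 291 and 274 in WT cells, with an interval of -0.12 to 0.15. Traf6, the ligase downstream of CD40 and RANK, read 95.1 and 95.1 in Rictor-null and 87.5 and 89.2 in WT cells, with an interval of -0.07 to 0.25. Traf4 read 69.7 and 69.5 in Rictor-null and 63.8 and 69.9 in WT cells. Tradd, which links TNF receptor 1 to its kinase and caspase partners, read 248 and 219 in Rictor-null and 278 and 235 in WT cells. The groups overlapped in Tradd, Traf1, Traf4 and Traf5.

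Downstream of the receptors, a list of 50 genes of NF-kappaB, JNK and cell death signalling was read, of which 44 were measured. Of these, 7 were higher and 8 lower in Rictor-null cells and 29 did not pass, against 12.5% and 7.19% of all genes, and their median was -0.02. Tnfaip3, encoding A20, which trims ubiquitin chains in TNF receptor signalling, read 1208 and 1285 in Rictor-null cells, against 1711 and 1726 in WT cells. This was the clearest difference of the list, without overlap (-0.46, SE 0.05, limma adjusted p = 2.69e-05). Nfkbiz, a nuclear IkappaB (-0.24), Tnip1, an A20 partner (-0.26), and Tank, a TRAF binding protein (-0.28), were lower as well, and so were the NF-kappaB subunits Rela (-0.27) and Relb (-0.28).

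Among the higher genes, Bid, the BH3 protein that carries caspase-8 signals to mitochondria, read 221 and 237 in Rictor-null cells, against 161 and 157 in WT cells (0.49, SE 0.07, limma adjusted p = 0.000198). Tax1bp1, an A20 adaptor (0.27), the JNK kinase Map2k4 (0.29), the IkappaB kinase subunits Ikbkg (0.33) and Ikbkb (0.16) and the inhibitor Nfkbia (0.13) were higher too. Of these 12 genes, Tnfaip3 and Bid passed with each array left out, but with the mean of all probe sets Bid was at 0.27 and lost its call (adjusted p = 0.0881, the highest over its limma alternatives, which began at 4.05e-05). Tax1bp1, Map2k4, Ikbkb and Tank lost theirs under that setting too. Rela, Relb, Tnip1, Tax1bp1, Map2k4 and Nfkbia were lost without either WT array, and Nfkbiz without WT replicate 2. Ikbkg was lost without Rictor-null replicate 1 or WT replicate 1, Ikbkb without Rictor-null replicate 1 or either WT array, and Tank without any 1 of the 4 arrays. The highest adjusted p of these 10 genes over their limma alternatives lay between 0.0624 and 0.243.

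**Figure D4:**
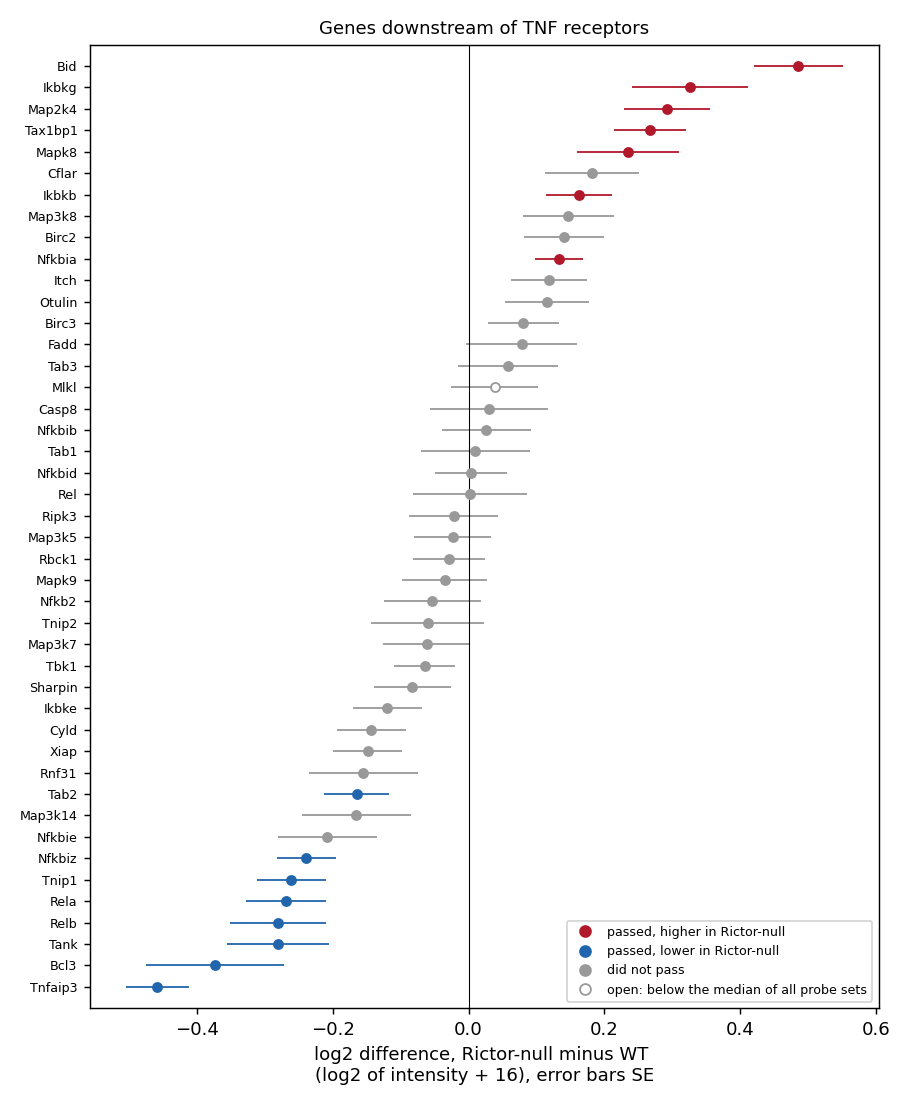
Log2 difference, Rictor-null minus WT, of the 44 measured genes downstream of TNF receptors, as the limma estimate with its standard error from 2 arrays per group. Tnfaip3 (-0.46) lies at the low end and Bid (0.49) at the high end, and 29 genes in grey did not pass.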

How the data were processed

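Arrays were Affymetrix mouse arrays of sorted TFH cells, with 2 Rictor-null and 2 WT samples. The deposited intensity values are linear, and per the labels the submitters' notes on processing list MAS5 and RMA without saying which of them made the values. The array medians were close to each other, which alone does not show that the arrays had been scaled. No further scaling was applied. The number of arrays limits the precision. Of 45037 probe sets, 34945 carry 1 symbol, 932 carry several and 9160 none, and only the first were used, updated by Entrez number (34741 matched, 0 changed). Each gene was read at its brightest probe set, with a pseudocount of 16 before log2, which understates changes of dim genes.

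The test was limma 3.58.1, run under R 4.3.3 (lmFit, eBayes with trend, two-sided) with Benjamini-Hochberg adjustment over all 18193 genes and a threshold of 0.05. The fit was also run on simulated data with planted changes and independent noise, which checks the code and not the calls made here. P-values rest on the spread between these pooled samples, not between mice. The variance of each gene was drawn toward that of other genes of like intensity. This gave 12.2 residual plus prior degrees of freedom. Named members are those above the median probe set or past the threshold, and of the downstream list up to 6 each way with the smallest p. The members and lists were chosen with earlier results of these data known. Alternatives were median centring, quantile normalization, a pseudocount of 1, the mean of all probe sets, a filter on dim genes, adjustment over all probe sets, no trend, a replicate block, each array left out in turn, and the methods' t-test. Promoters are from RefSeq (GRCm38.p6). Tnfsf12, Tnfsf13, Tnfsf15, Tnfsf18, Tnfrsf26 and Traf3, and of the downstream list Nfkb1, Chuk, Map2k7 and Ripk1 among others, were not analysed here.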

Additional observations from a re-analysis of the deposited data

How the results depend on the processing

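Median centring, quantile normalization, a pseudocount of 1 and the filter on dim genes kept every count of calls within 1.5 times of the 3 higher and 5 lower members and the 7 higher and 8 lower downstream genes. No call of a named member or downstream gene changed sign. Adjustment over all probe sets left 1 higher member. The mean of all probe sets left 2 higher downstream genes and 842 lower genes in all, and eBayes without the trend left 4. The methods' t-test, one-tailed and unadjusted, gave 5 higher members and 14 lower downstream genes, and after Benjamini-Hochberg adjustment it gave 0 higher and 0 lower members and 0 higher and 0 lower downstream genes, with 3 higher and 3 lower over all genes, against 3143 and 2231 unadjusted.

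With each array left out in turn, higher members ranged from 1 to 2, lower members from 2 to 5, higher downstream genes from 1 to 6 and lower downstream genes from 1 to 7. The lone array is then assumed to vary like the other group. Over all genes, calls fell to 1005 higher and 457 lower without WT replicate 1 and to 930 and 494 without WT replicate 2, against 2283 and 1308 with all arrays. With the replicate number as a block, 3 members were higher and 5 lower, and 7 downstream genes were higher and 8 lower. Over all genes, the difference between replicates 1 and 2 in Rictor-null cells correlated at -0.03 with that in WT cells. The numbers are therefore not treated as a pairing. Signal limits the 12 members below the median probe set, where a difference may not be readable.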

Other observations

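Probe sets that carry several symbols entered no comparison. One that names Tnfsf13, Tnfsf12 and their read-through gene together read 7.63 and 6.75 in Rictor-null and 7.14 and 8.12 in WT cells, and one that names Tnfsf12 and the read-through gene read 17.1 and 15.6 in Rictor-null and 14.6 and 15.7 in WT cells. Both are dim probe sets by the array median.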
